A study of Mus musculus with 4 samples.

Results

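The *Trim* genes encode the tripartite motif proteins, a family of E3 ubiquitin ligases. The family was taken as every gene in the probe annotation whose symbol is *Trim* followed by a number, with or without a letter, and a gene's value was the mean of its probe sets that carry that symbol alone. The rule found 63 genes of the 22180 that have a probe set of their own, measured by 68 probe sets. Another 5 genes (*Trim5*, *Trim34b*, *Trim60*, *Trim61* and *Trim65*) share all their probe sets with other genes and were left out of the counts.

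The RNA came from cerebral cells that were taken from C3H/He pups at 3 days of age and cultured, labelled as primary astrocytes and grown as adherent glia after shaking had removed oligodendrocytes. Of the 4 conditions, the control received neither agent. The second received interferon-gamma (IFNγ) at 250 IU/mL, the third benztropine, a muscarinic receptor blocker studied as a remyelination stimulus, at 2.0 μM, and the fourth both agents, each for 48 h. Each condition was measured on 1 Affymetrix Mouse Gene 2.0 ST array, loaded with RNA of 3 cultures mixed, so the spread between cultures was not measured and a difference between arrays has no error of its own. All values are log2 signals, so a difference of 1 is a 2-fold change, and a difference past 1.5-fold (0.58) was counted as higher or lower. Signals of different probe sets cannot be compared as levels of RNA.

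A typical tripartite motif protein carries a RING domain, which binds the ubiquitin-conjugating enzyme, then B-box zinc fingers and a coiled coil through which the protein dimerizes. The C-terminal domain selects the target and defines the subfamily, and in the largest subfamily it is a PRY-SPRY domain. Several members are induced by interferons and act in antiviral defense, binding viral capsids or antibody-coated particles or attaching ubiquitin to the proteins that sense viral RNA, while others serve in chromatin, muscle, neurons and development.

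IFNγ raised *Trim21* and *Trim30d*. Both passed 1.5-fold in each of the separate pairs of arrays (IFNγ against control, and both agents against benztropine alone) and were called by the test across all genes. *Trim30a* and *Trim14* passed 1.5-fold in 1 of the pairs each. No member was lower past 1.5-fold with IFNγ, and no member passed 1.5-fold with benztropine in either direction. Over all genes, 1.39% were higher and 0.289% lower past 1.5-fold with IFNγ against control. With benztropine against control the shares were 0.271% and 0.194%. In these cultures fewer cells of a type and less RNA per cell cannot be told apart.

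Promoter sequences of *Trim21* and *Trim30d* are shown because both hold the letters of the interferon-stimulated response element. The 2 raised members are shown in full, from 250 bases before to 50 bases after the annotated start, read 5′ to 3′ in the direction of the gene from the RefSeq promoter table (GRCm38.p6), with the motif in capitals. The motif is GAAA, any 2 bases and GAAA, or its reverse complement, TTTC, any 2 bases and TTTC. The build used for the probe sets is not stated in the sources used here, and no coordinates other than those of the promoters are given.
*Trim21*, chr7:102565433-102565732, minus strand: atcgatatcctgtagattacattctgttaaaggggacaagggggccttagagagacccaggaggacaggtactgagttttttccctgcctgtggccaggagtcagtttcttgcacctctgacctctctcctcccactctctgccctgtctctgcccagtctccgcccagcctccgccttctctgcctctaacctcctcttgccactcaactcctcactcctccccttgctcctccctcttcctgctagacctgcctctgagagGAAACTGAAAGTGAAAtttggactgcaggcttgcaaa
*Trim30d*, chr7:104507800-104508099, minus strand: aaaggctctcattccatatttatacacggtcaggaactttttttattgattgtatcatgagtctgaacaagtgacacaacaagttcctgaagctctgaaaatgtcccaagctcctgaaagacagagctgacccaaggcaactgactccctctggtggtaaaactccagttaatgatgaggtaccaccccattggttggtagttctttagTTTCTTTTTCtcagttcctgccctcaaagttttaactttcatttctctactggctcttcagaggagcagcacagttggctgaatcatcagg
In *Trim21* 2 copies of the motif overlap and begin 13 bases after the annotated start. In *Trim30d* the motif begins 41 bases before it.

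Of 63 members, 49 had a promoter in the table. The motif, searched on both strands, was present in 8 of these 49 genes (16.3%), beside 657 of all 16990 genes with a promoter (3.87%). By promoter it was present in 9 of 63 member promoters (14.3%) and in 3.44% of all 32851. *Trim2* counts as having it from 1 of its 5 promoters. The windows of *Trim30d* and of the other genes with the motif are given with 15 bases on either side where the promoter reached that far, and the aligned window of *Trim30c*, which lacks it, is given for comparison with *Trim30d*, its capitals marking the aligned 10 bases.
*Trim30a*, chr7:104446099-104446138, minus strand: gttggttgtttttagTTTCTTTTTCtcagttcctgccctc
*Trim30a*, chr7:104465205-104465244, minus strand: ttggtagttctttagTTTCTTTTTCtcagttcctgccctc
*Trim30d*, chr7:104507866-104507905, minus strand: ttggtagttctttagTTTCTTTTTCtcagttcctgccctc
*Trim34a*, chr7:104244452-104244491, plus strand: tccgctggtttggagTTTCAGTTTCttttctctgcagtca
*Trim12a*, chr7:104315461-104315500, minus strand: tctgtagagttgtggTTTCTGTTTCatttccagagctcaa
*Trim12c*, chr7:104353354-104353393, minus strand: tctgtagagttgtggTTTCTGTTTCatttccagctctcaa
*Trim26*, chr17:36836971-36837016, plus strand: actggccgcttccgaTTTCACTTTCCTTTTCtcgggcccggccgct
*Trim2*, chr3:84212789-84212825, minus strand: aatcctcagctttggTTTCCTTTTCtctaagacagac
*Trim30c*, chr7:104400891-104400930, minus strand: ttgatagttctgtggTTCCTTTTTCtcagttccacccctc
The 40 bases of *Trim30d* and of the second window of *Trim30a* are the same letters. *Trim30c* differs from *Trim30d* at 6 of the 40 bases, and 1 of these is T3C within the motif, counted from the first capital. The aligned 10 bases begin 137 bases before the annotated start in *Trim30c* and 41 bases before it in *Trim30d*. The part of any of these differences in the signals was not tested. In IFNγ against control, the 8 genes with the motif had a median difference of 0.48, all 8 were above 0, and 3 were past 1.5-fold (*Trim21*, *Trim30a* and *Trim30d*). The 41 genes without it had a median of -0.02, 17 were above 0 and 0 were past 1.5-fold. *Trim12a*, *Trim12c*, *Trim30a*, *Trim30d* and *Trim34a* are related neighbors on chromosome 7, so the 8 are not separate observations. *Trim12a*, *Trim12c* and *Trim34a* were silent by their means. Without the motif, *Trim69* (0.41), *Trim6* (0.39) and *Trim25* (0.38) exceeded *Trim26* (0.35), *Trim12c* (0.25) and *Trim2* (0.11), which have it. *Trim14* had no promoter in the table and is in neither set. In both agents against benztropine, the medians were 0.42 and -0.05, with 7 of 8 and 14 of 41 genes above 0. Over all genes with a promoter, 7.91% of the 657 with the motif and 0.998% of the 16333 without it were higher past 1.5-fold with IFNγ against control. A match of letters is a description and not a binding site.

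Detection was judged against 1405 probe sets of olfactory and vomeronasal receptors, genes of the nose, and a gene counted as above background where its signal passed their 95th percentile on that array (6.64 to 6.69). Of the 63 members, 34 (54%) were above background on all 4 arrays, 27 (42.9%) on none and 2 (*Trim13* and *Trim29*) on some. The shares over all genes were 55.9% and 38.6%. The 27 silent members included *Trim6*, *Trim12a*, *Trim12c*, *Trim30b*, *Trim30c*, *Trim34a* and *Trim38* among the interferon-linked genes, and *Trim54*, *Trim55* and *Trim72* of muscle. They also included *Trim7*, *Trim10*, *Trim15*, *Trim31*, *Trim36*, *Trim40*, *Trim42*, *Trim43a*, *Trim43b*, *Trim50*, *Trim52*, *Trim58*, *Trim66*, *Trim67*, *Trim69*, *Trim75* and *Trim80*. A silent gene here is one whose mean over its probe sets was not above background on any array, which does not show that its RNA was absent. In 3 of the 27, single probe sets did pass. One of *Trim54* did so in control (6.76) and with benztropine (6.88), one of *Trim7* with IFNγ (6.78), and one of *Trim34a* on both arrays with IFNγ. Taken by the highest probe set, 24 members were silent.

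The members with the highest control signals were *Trim37* (10.59), a ligase of peroxisomes and centrosomes, *Trim44* (10.19), which has no RING domain, and *Trim8* (9.73), which binds the cytokine signal inhibitor SOCS1. None of the 3 moved past 1.5-fold. *Trim37* gave 10.46 with IFNγ, 10.62 with benztropine alone and 10.38 with both agents, *Trim44* gave 10.13, 10.19 and 10.13, and *Trim8* gave 9.81, 9.77 and 9.74 in that order.

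**Figure D1:**
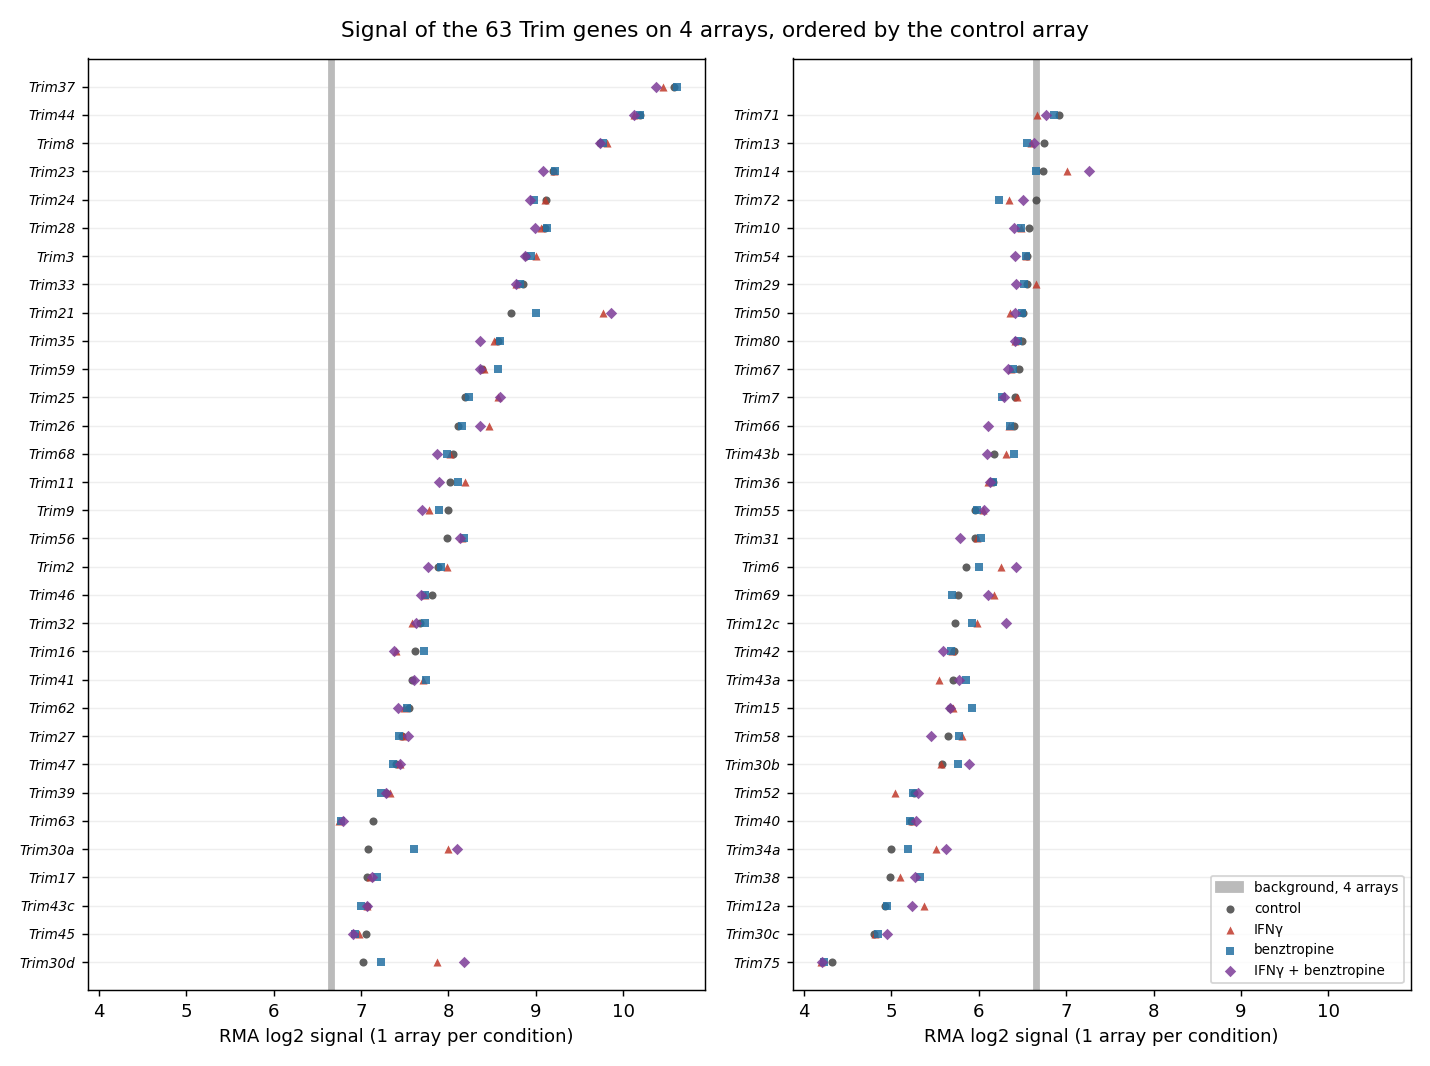
RMA log2 signal (horizontal axis) of each of the 63 *Trim* genes, ordered by the control array, with 1 point per array (control, IFNγ, benztropine, both agents). The gray band is the background (6.64 to 6.69), and *Trim21*, *Trim30a* and *Trim30d* show the 2 arrays with IFNγ to the right of the 2 without it.

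The first comparison asks which members follow IFNγ alone. Of 63 members, 3 passed 1.5-fold upward (4.76%) and 0 downward, beside 1.39% and 0.289% of all genes. The members' differences ran from -0.38 to 1.05 with a median of 0.01 (all genes -0.00), and 50 of 63 lay within 0.25 of 0 (79.4%, beside 86.2% of all genes). In the separate pair, both agents against benztropine, 3 members were again higher (1.25% of all genes) and 0 lower (0.347%), with a median of -0.04 for members and for all genes. The 2 members higher in both pairs stand beside 0.879% of all genes, and 0 members were lower in both (0.0451%). These counts describe single arrays and are not a test of the family.

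A linear model (limma) with additive terms for the 2 agents used all 4 arrays and every gene, which leaves 1 residual degree of freedom. An interaction between the agents would enter its residual, together with the error of the arrays. At an adjusted p under 0.05 (Benjamini-Hochberg over 22180 genes), limma called 2 members higher with IFNγ (0.726% of all genes) and 0 lower (0.0271%). Without adjustment, at 0.05, 11 members were higher (5.87% of all genes) and 2, *Trim9* and *Trim16*, were lower (6.53%). The 11 were *Trim6*, *Trim12a*, *Trim12c*, *Trim14*, *Trim21*, *Trim25*, *Trim26*, *Trim30a*, *Trim30d*, *Trim34a* and *Trim69*.

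*Trim21* encodes the cytosolic antibody receptor that sends antibody-coated virus to the proteasome. Its signal was 8.72 in control, 9.77 with IFNγ alone, 9.01 with benztropine alone and 9.86 with both agents. Both arrays with IFNγ were above both arrays without it. The difference was 1.05 (2.07-fold) against control and 0.85 (1.81-fold) in the separate pair, and limma estimated 0.95 ± 0.082 (SE, adjusted p = 0.025).

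*Trim30d* lies beside *Trim30a* in a group of close copies of one gene. Its signal was 7.02 in control, 7.87 with IFNγ alone, 7.23 with benztropine alone and 8.18 with both agents. Again the 2 arrays with IFNγ were above the 2 without. The difference was 0.84 (1.80-fold) against control and 0.95 (1.93-fold) in the separate pair, and limma estimated 0.90 ± 0.072 (SE, adjusted p = 0.021). The probes of *Trim30a* and *Trim30d* could bind the other gene's RNA, so which of the copies gave the signal is uncertain.

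*Trim30a* in mouse restrains Toll-like receptor signaling by sending the TAB2 and TAB3 adaptors to degradation. The 4 arrays gave 7.08 in control, 8.00 with IFNγ alone, 7.61 with benztropine alone and 8.10 with both. Both arrays with IFNγ were above both without it. The difference was 0.92 (1.90-fold) against control and 0.49 (1.40-fold) in the separate pair, where the array with benztropine alone was itself above control. The limma estimate was 0.71 ± 0.122 (SE, adjusted p = 0.156), and it passed the threshold in 2 of 4 alternative fits (adjusted p from 0.025 to 0.161).

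*Trim14*, which lacks a RING domain and in human cells joins the MAVS complex on mitochondria, stood just above background in control. Its signal was 6.73 in control, 7.01 with IFNγ alone, 6.66 with benztropine alone and 7.27 with both agents. The difference was 0.28 against control and 0.61 (1.53-fold) in the separate pair. The limma estimate of 0.44 ± 0.103 (SE) did not pass (adjusted p = 0.245, and 0.063 to 0.251 in 4 alternative fits).

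**Figure D2:**
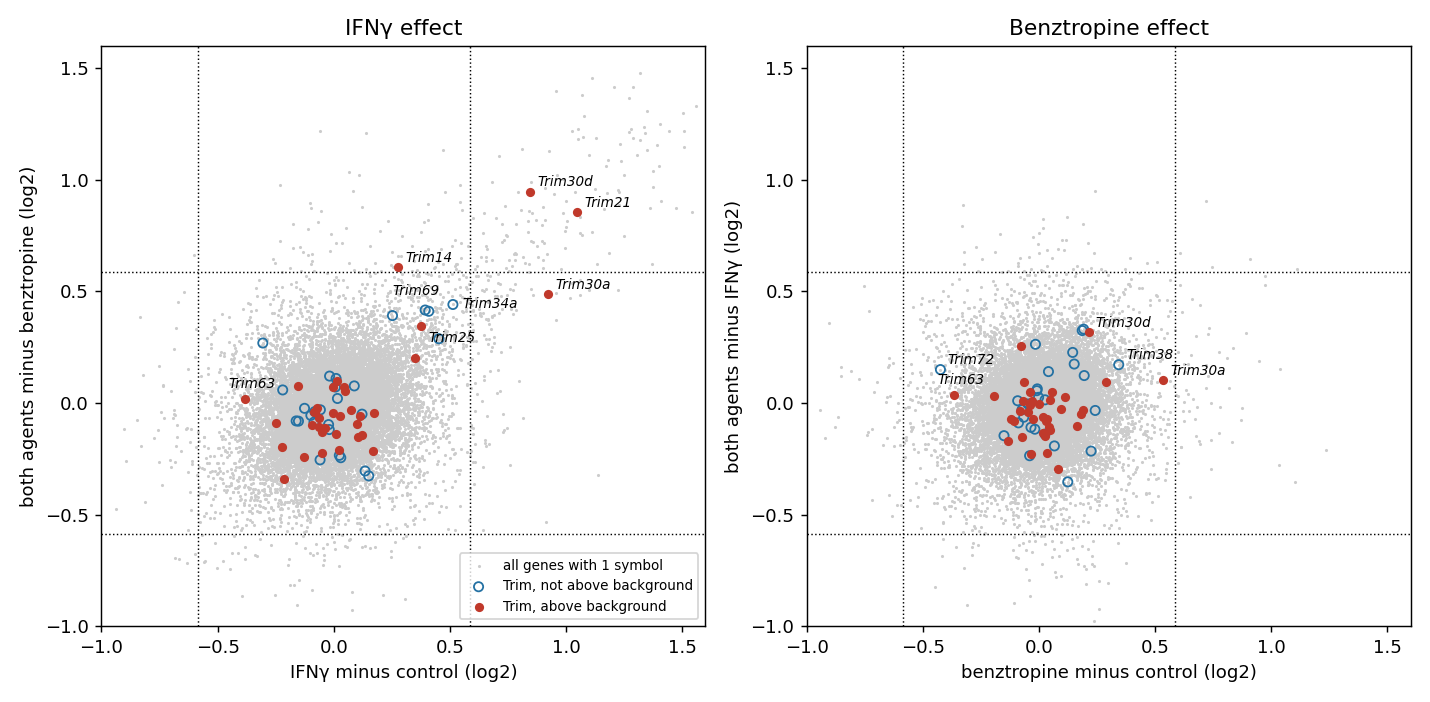
Log2 difference in each pair of arrays for IFNγ (left, against control and against benztropine alone) and for benztropine (right, against control and against IFNγ alone), for *Trim* genes above background on at least 1 array (filled) and the silent ones (open), over all genes (gray). Dotted lines mark 1.5-fold, and genes beyond the ends of the axes are not drawn. *Trim21* and *Trim30d* lie past both lines on the left, and on the right no *Trim* gene lies past a line.

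The interferon-linked members were next described as a group, from a list of genes tied to interferon in earlier work. Of its 16 genes, 14 had a probe set of their own and 7 of these were silent. With IFNγ against control, 3 passed 1.5-fold upward and 0 downward (*Trim21*, *Trim30a* and *Trim30d*), and 3 were higher and 0 lower in the separate pair (*Trim14*, *Trim21* and *Trim30d*). Over all genes, 1.39% were higher and 0.289% lower against control, and 1.25% and 0.347% in the separate pair. The median difference of the 14 was 0.36 against control and 0.37 in the separate pair, beside -0.00 and -0.04 for all genes. The list was drawn up with results of these arrays known, and is no independent evidence of direction.

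*Trim25*, which attaches ubiquitin to the RNA sensor RIG-I, gave 8.19 in control, 8.57 with IFNγ alone, 8.24 with benztropine alone and 8.59 with both agents. The differences of 0.38 and 0.35 were alike in the 2 pairs. The limma estimate was 0.36 ± 0.069 (SE, adjusted p = 0.178), and in 4 alternative fits the adjusted p ran from 0.035 to 0.184. *Trim26*, which acts in antiviral signaling, gave 8.11, 8.46, 8.16 and 8.36 in the same order, with differences of 0.35 and 0.20. *Trim56*, a ligase of the cytosolic nucleic acid response, gave 7.99, 8.16, 8.17 and 8.13, with differences of 0.17 and -0.05. *Trim25* and *Trim26* were brighter on both arrays with IFNγ than on both without it, whereas the values of *Trim56* overlapped.

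Among the silent members, *Trim34a*, related to a human capsid-binding factor, averaged 4.99, 5.51, 5.19 and 5.63 in control, IFNγ, benztropine and both agents. Its 2 probe sets did not move together. One gave 6.17, 7.31, 6.56 and 7.43, above background only on the 2 arrays with IFNγ, which is at least 1.54-fold against control and at least 1.72-fold in the separate pair. By this probe set alone *Trim34a* was past 1.5-fold in both pairs and called by limma (adjusted p = 0.030), whereas by the mean of the 2 it was not (adjusted p = 0.115). The other stayed far below background on every array, between 3.70 and 3.82. In these bounds, the dim array was set to its background where its own signal was lower.

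*Trim6*, which in human cells builds free ubiquitin chains for the kinase IKKε, gave 5.86, 6.25, 6.01 and 6.42, with differences of 0.39 and 0.42 for IFNγ. *Trim69* gave 5.76, 6.17, 5.70 and 6.11, with differences of 0.41 in both pairs. *Trim12a* and *Trim12c*, relatives of the human capsid-binding restriction factor TRIM5, had differences of 0.45 and 0.29, and of 0.25 and 0.39. None of these 4 was above background on any array or called by limma (adjusted p from 0.148 to 0.245). *Trim38*, which restrains Toll-like receptor signaling, gave 4.98, 5.10, 5.32 and 5.27, with differences of 0.12 and -0.05.

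Many of these genes are neighbors. Chromosome 7 carries 14 members, and there RefSeq places *Trim6*, *Trim34a*, *Trim5*, *Trim12a*, *Trim34b*, *Trim12c*, *Trim30b*, *Trim30c*, *Trim30a*, *Trim30d* and *Trim30e-ps1* in that order. Of these 11 genes, 8 are members with a probe set of their own. Their median difference was 0.42 with IFNγ against control, with 7 of 8 above 0 and 2 past 1.5-fold, and 0.40 in the separate pair, with 8 of 8 above 0 and 1 past 1.5-fold. The other 55 members had medians of -0.00 and -0.06, with 26 and 16 above 0. Within the group, *Trim30b* (-0.02 and 0.12) and *Trim30c* (0.01 and 0.11) stood nearest to 0. Both were silent by their means, but so were *Trim6*, *Trim12a*, *Trim12c* and *Trim34a*. Only *Trim30a* and *Trim30d* were above background, so the medians of the group rest largely on signals below it. The 8 genes share sequence, so their probe sets are not independent measurements.

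**Figure D3:**
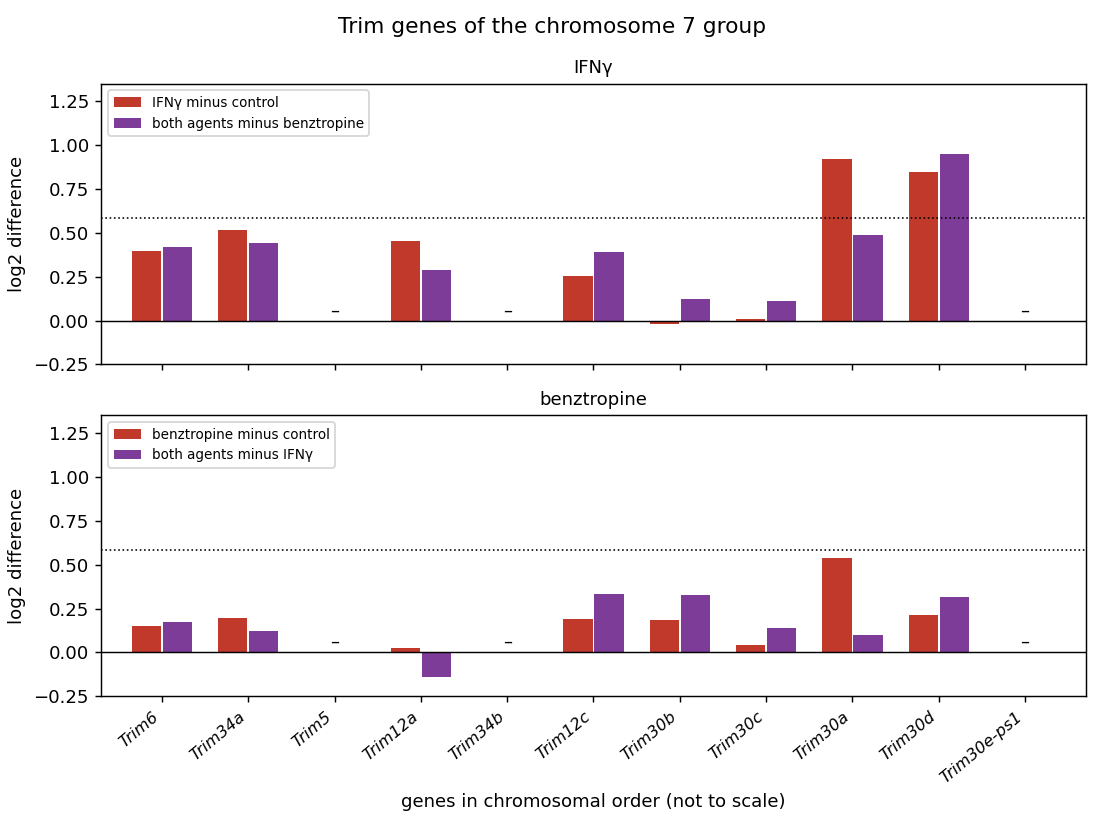
Log2 difference (vertical axis) of the *Trim* genes of the chromosome 7 group in chromosomal order, not to scale, for IFNγ (upper) and benztropine (lower), with 1 bar per pair of arrays and no error, since each condition had 1 array. The dotted line is 1.5-fold, and a dash marks a gene without a probe set of its own or outside the naming rule. *Trim30a* and *Trim30d* carry the tallest bars for IFNγ, while *Trim30b* and *Trim30c* between *Trim12c* and *Trim30a* lie near 0.

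Members without a RING domain were listed apart whatever their C-terminal domain, so their list is not a subfamily by that domain. The calls fell in the PRY-SPRY list and in this one. Of 32 measured genes of the PRY-SPRY list, 3 were higher against control and 2 in the separate pair, with medians of 0.05 and 0.06, and 17 were silent. Of 5 genes without a RING domain, 0 were past 1.5-fold against control and 1 (*Trim14*) in the separate pair. The 4 genes with an NHL domain (among them *Trim71*), the 4 of the group of *Trim9* and the 3 of the group of *Trim28* had 0 calls in either pair, and so had the remaining subfamilies. Against control 1.39% of all genes were higher and 0.289% lower, and in the separate pair 1.25% and 0.347%. The PRY-SPRY list aside, these groups have too few genes for their 0 or 1 calls to be set against these shares.

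In the 2 IFNγ pairs, 1.39% and 1.25% of all genes were higher and 0.289% and 0.347% lower. The 5 chromatin and transcription genes had medians of -0.05 and -0.04 there, with 0 calls. Among them *Trim28*, the corepressor that KRAB zinc finger proteins recruit, gave 9.10 in control, 9.06 with IFNγ alone, 9.12 with benztropine alone and 8.99 with both agents, and *Trim33*, a partner of SMAD proteins, gave 8.85, 8.77, 8.82 and 8.78.

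The 6 neuronal genes had medians of -0.09 and -0.08, with 0 calls (1.39% and 1.25% of all genes higher, 0.289% and 0.347% lower). *Trim9*, a brain ligase of netrin signaling, had the largest difference among them, with 8.00 in control, 7.78 with IFNγ alone, 7.89 with benztropine alone and 7.70 with both agents. Both arrays with IFNγ were below both without it, but the limma estimate of -0.21 ± 0.069 (SE) did not pass (adjusted p = 0.360). Summed signal of the 10 neuron markers lay between 2500 and 2740 on the 4 arrays, 0.958 of control with IFNγ and 0.927 in the separate pair, with *Snap25*, *Nefl*, *Slc17a7*, *Elavl4* and *Dcx* below background throughout. The part of neurons in the *Trim9* values was not tested.

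Of the 4 muscle genes 3 were silent by their mean, though one probe set of *Trim54* was above background on 2 arrays. *Trim63*, the muscle atrophy ligase MuRF1, gave 7.14 in control, 6.75 with IFNγ alone, 6.77 with benztropine alone and 6.79 with both agents, so that the control alone stood apart. *Trim71*, the LIN41 protein of early development, gave 6.92, 6.67, 6.85 and 6.77, close to background. Neither had the same difference in both IFNγ pairs, at -0.38 and 0.02 for *Trim63* and -0.25 and -0.09 for *Trim71*.

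The limma intervals bound the size of a change. With IFNγ, the 95% interval lay wholly within 1.5-fold of 0 for 56 of 63 members, the exceptions being *Trim6*, *Trim14*, *Trim21*, *Trim30a*, *Trim30d*, *Trim34a* and *Trim69*. Standard errors ran from 0.068 to 0.150. These intervals rest on 1 residual degree of freedom and on a spread borrowed from all genes. For the silent members they describe signal near background and do not bound a change in RNA.

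The benztropine comparisons ask whether the drug moved the family alone or on top of IFNγ. In benztropine against control, 0 of 63 members passed 1.5-fold upward and 0 downward (0.271% and 0.194% of all genes). In both agents against IFNγ alone the counts were also 0 and 0 (0.239% and 0.275%). In both of these pairs at once, 0 members were higher (0.0225% of all genes) and 0 lower (0%). The members' differences ran from -0.42 to 0.54 in the first pair and from -0.35 to 0.33 in the second, with medians of 0.02 and -0.03, beside 0.01 and -0.02 for all genes. By limma, 0 members and 0 of all genes (0%) passed for benztropine, and at an unadjusted p under 0.05 there were 4 members higher (3.53% of all genes) and 0 lower (3.61%).

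The 4 were *Trim12c*, *Trim30b*, *Trim30d* and *Trim38*, of which *Trim30d* alone was above background. Its differences for benztropine were 0.21 and 0.32, and limma estimated 0.27 (adjusted p = 0.692). *Trim30a* had the largest upward difference among members, 0.54 (1.45-fold) against control and 0.10 on top of IFNγ, an estimate of 0.32 ± 0.122 (SE, adjusted p = 0.692). *Trim21* had differences of 0.29 and 0.09. The 8 genes of the chromosome 7 group had a median of 0.19 with benztropine against control, 8 of 8 above 0, and of 0.16 on top of IFNγ, 7 of 8 above 0. Of the chromosome 7 group only *Trim30a* and *Trim30d* were above background. The other 55 members had medians of -0.01 and -0.04. Probe sets of several symbols in the chromosome 7 group, left out of these medians, were lower with benztropine where above background. Against control and on top of IFNγ, that of *Trim34b* and *Trim34a* differed by -0.20 and -0.06. The brighter of *Trim12c* and *Trim5* differed by -0.33 and -0.20, and the other, below background, by 0.10 and 0.06. With these probe sets added, the difference against control was -0.01 for *Trim12c* and 0.06 for *Trim34a*. The control array enters both the IFNγ and the benztropine differences, so these 2 sets of values are not independent.

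The 95% interval for benztropine lay within 1.5-fold of 0 for 62 of 63 members, the exception being *Trim30a*, whose upper bound was 0.64. The largest difference downward was in *Trim72*, the membrane repair protein of muscle, with 6.66 in control and 6.23 with benztropine, both below background.

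**Figure D4:**
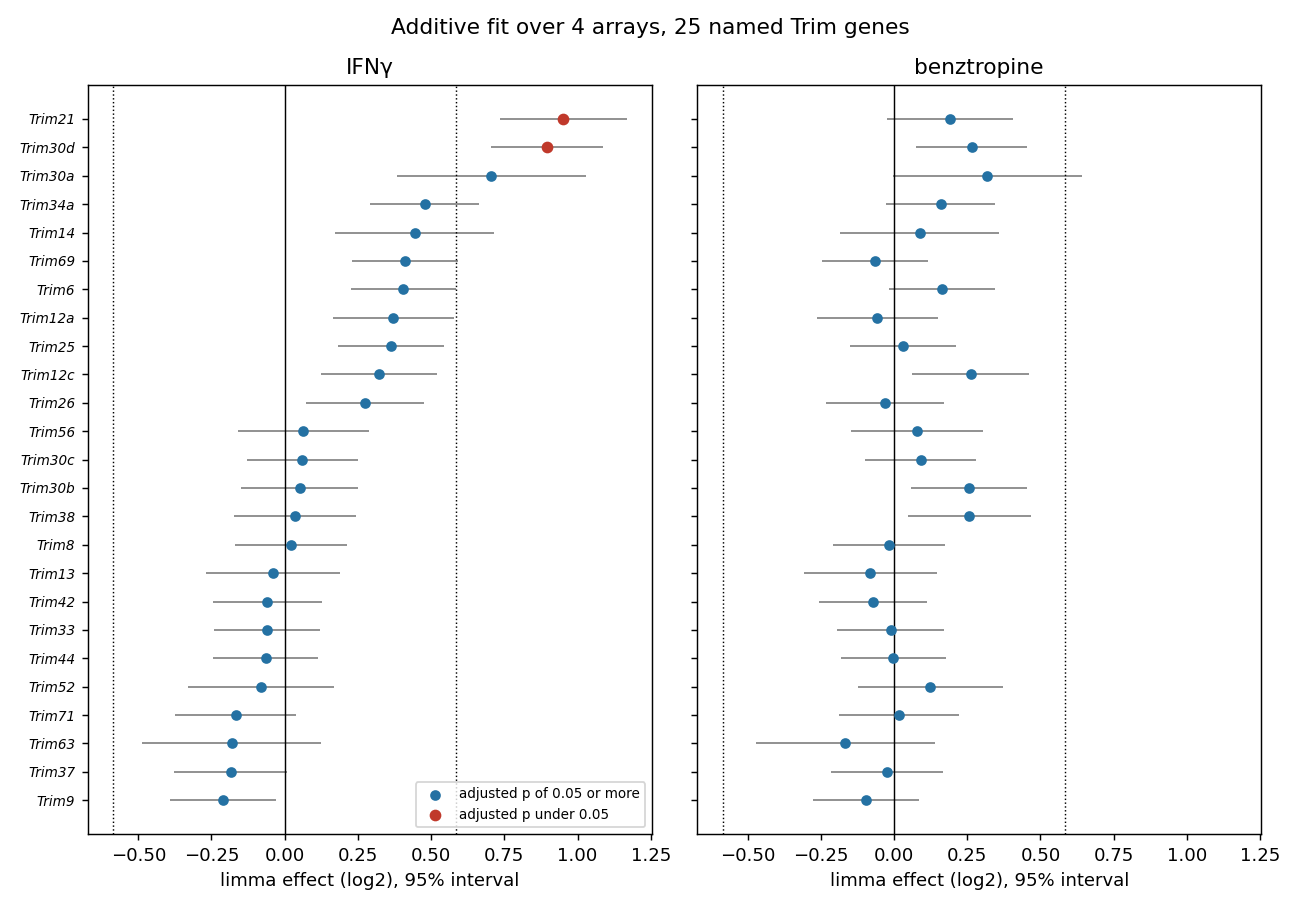
Additive limma effect (points) with its 95% interval (lines) on the log2 scale for IFNγ (left) and benztropine (right) in the 25 *Trim* genes taken by the naming rule, over 4 arrays. Dotted lines mark 1.5-fold, and red points have an adjusted p under 0.05, which *Trim21* and *Trim30d* alone reached, for IFNγ.

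The partners of the family in ubiquitin transfer and viral sensing were counted from lists. These lists were drawn up with results of these arrays known, so their counts are no independent evidence. Of 18 RNA and DNA sensing partners, 7 passed 1.5-fold upward and 0 downward with IFNγ against control (1.39% and 0.289% of all genes). In the separate pair the counts were 6 and 0 (1.25% and 0.347% of all genes), and the medians were 0.28 and 0.34. The largest differences were in *Usp18* (1.47 and 0.87), which removes ISG15 from proteins, *Irf7* (1.38 and 0.97), a transcription factor of interferon genes, and *Ifih1* (1.11 and 0.77), the RNA sensor MDA5. Limma called *Irf7* (adjusted p = 0.039) and not *Usp18* (0.088) or *Ifih1* (0.056).

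Of 12 ubiquitin-conjugating genes, 3 were higher and 0 lower in each pair, with medians of 0.02 and 0.03. Over all genes, 1.39% and 1.25% were higher in these pairs and 0.289% and 0.347% lower. All 3 belong to the ISG15 pathway, in which *Trim25* can serve as a ligase. They were the activating enzyme *Uba7* (1.38 and 1.04), the conjugating enzyme *Ube2l6* (1.03 and 1.22) and the modifier *Isg15* (0.96 and 1.40), all called by limma (adjusted p = 0.025, 0.015 and 0.045). *Isg15* was also 0.67 higher with both agents than with IFNγ alone, the 1 gene of this list past 1.5-fold there (0.239% of all genes). Its difference with benztropine against control was 0.24, and limma did not call it for benztropine (adjusted p = 0.692).

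Of 11 IFNγ signaling genes, 3 were higher and 0 lower in each pair, beside the same shares of all genes (1.39% and 1.25% higher, 0.289% and 0.347% lower). They were *Stat2* (1.83 and 1.53), *Irf1* (1.74 and 2.17) and *Irf9* (0.78 and 0.67), all called by limma (adjusted p = 0.0078, 0.0090 and 0.040). Of 6 tripartite motif genes under other symbols, 0 passed 1.5-fold in either pair. *Pml*, the nuclear body protein, came nearest, with 0.58 against control and 0.29 in the separate pair, and was not called (adjusted p = 0.230).

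The cell makeup was checked on the same arrays. All 10 astrocyte markers and all 10 microglia and macrophage markers were above background in control, and the label of astrocytes thus covers a culture in which macrophage markers were also bright. Summed signal of the microglia and macrophage list ran from 24000 to 26800, at 1.1 times control with IFNγ and 1.07 times in the separate pair, and that of the astrocyte list from 14800 to 17500, at 0.931 and 0.892 times. *S100b* was below background on both arrays with IFNγ. The fibroblast list, of which 4 to 5 of 8 markers were above background, ran from 1390 to 1810, at 0.863 and 0.818 times with IFNγ, and that of oligodendrocytes (7 to 8 of 9) from 2640 to 2990. Of 8 T and NK cell markers, 0 to 1 were above background. Summed signal with benztropine, against control and on top of IFNγ, was 1.05 and 1.02 times for the microglia and macrophage list. It was 0.949 and 0.908 times for the astrocyte list and 1.12 and 1.06 times for the fibroblast list. With benztropine, 2 of 8 fibroblast markers passed 1.5-fold upward against control and 1 on top of IFNγ (0.271% and 0.239% of all genes). In both pairs 0 passed downward (0.194% and 0.275%). The part of cell makeup in the *Trim* differences was not tested. The median of all probe sets was between 6.65 and 6.68 on every array.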

How the data were processed

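RNA of control, IFNγ, benztropine and doubly treated cultures was hybridized to 4 Mouse Gene 2.0 ST arrays, 1 per condition, and the number of arrays limits the precision. The values deposited by the authors are log2 signals from RMA in Affymetrix Expression Console, which corrects background, normalizes quantiles and summarizes probe sets. They run from 2.15 to 13.52, were used as deposited, and are levels not centered by gene. A genome build for them is not given in the sources used here.

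Of 41345 probe sets, 23521 carry 1 gene symbol (22180 genes), 1820 several and 16004 none in the platform annotation. Probe sets with 1 symbol were averaged by gene, and no gene was named from the others. Of the members, 58 had 1 probe set and 5 had 2. Differences between arrays were counted at 1.5-fold with no test. Limma 3.58.1 in R 4.3.3 fitted additive effects of both agents to all 22180 genes (residual degrees of freedom 1, prior 3.613), with Benjamini-Hochberg adjustment at 0.05. Background was the 95th percentile of 1405 receptor probe sets.

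Members and lists were chosen with earlier results of these data known. Named genes were members past 1.5-fold or called by limma, the interferon-linked list, the 5 largest other IFNγ differences, the 3 highest control signals, the largest difference of each subfamily or role, and the 3 largest of each partner list. *Trim28*, *Trim72* and some genes named in counts were chosen after their values were seen. Promoters came from RefSeq (GRCm38.p6), and 49 of 63 members matched. A second motif was searched and is not reported here.

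Alternatives were a 2-fold threshold, signals normalized again by quantiles or freed of a loess trend on the mean (span 0.3), the highest probe set per gene, probe sets with several symbols added, a filter on background, a background at the 99th percentile and the separate pair of arrays. The limma fit was repeated with a variance trend, with robust variances, on genes above background and on the highest probe set per gene. Its calls were also counted at an adjusted p of 0.10. The steps were tested on simulated data. Counts and figures were made in Python 3.11.15 (pandas 2.3.3, numpy 2.4.6, statsmodels 0.14.6, matplotlib 3.10.9).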

Additional observations from a re-analysis of the deposited data

Results flagged for a closer look

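Some *Trim* genes of the chromosome 7 group are measured by probe sets that match several symbols, which the counts of the family leave out, and these probe sets also carried signal that was higher with IFNγ than in control. The probe set shared by *Trim34b* and *Trim34a* gave 8.58 in control, 9.03 with IFNγ alone, 8.39 with benztropine alone and 8.98 with both agents. It was above background on all 4 arrays, and its difference with IFNγ was 0.45 against control and 0.59 in the separate pair.

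A probe set shared by *Trim12c* and *Trim5* gave 5.66, 6.28, 5.76 and 6.34 in the same order, below background on every array, with differences of 0.62 against control and 0.58 in the separate pair. A second probe set of the same symbols was above background on all 4 arrays, at 7.48, 7.82, 7.16 and 7.62, with differences of 0.33 and 0.46. Which of the genes gave these signals cannot be told apart, and the differences were not tested.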

How the results depend on the processing

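No paired analysis was possible because each condition had 1 array, and for the same reason no replicate could be left out. At a threshold of 2-fold, 1 member (*Trim21*) was higher with IFNγ against control, 0 were in the separate pair and 0 in both pairs, in place of 3, 3 and 2. With probe sets of several symbols added, 4 genes were higher past 1.5-fold in the separate pair, *Trim34b* being the one added. The counts against control and in both pairs were then unchanged. Limma called 4 members with IFNγ (*Trim21*, *Trim25*, *Trim30a* and *Trim30d*) with a variance trend, and the same 4 where only genes above background were tested, in place of 2. By the highest probe set per gene, limma called 3 members, *Trim34a* being added (adjusted p = 0.030), and 4 were higher past 1.5-fold against control, 4 in the separate pair and 3 in both, *Trim34a* again being the one added. The shares over all genes under these settings are not given here, so the changes in count cannot be read as particular to the family. The causes were not tested. Over the 4 alternative fits the adjusted p ran from 0.00059 to 0.026 for *Trim21* and from 0.0011 to 0.022 for *Trim30d*. For benztropine, 0 of all genes passed in any of these fits, and the lowest adjusted p of a member was 0.525.

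Silent members numbered 37 (58.7%, beside 56.6% of all genes) by the 99th percentile and 24 by the highest probe set, in place of 27. Of 250 values of the 25 named members under alternatives, 0 changed direction past the threshold, 2 passed 1.5-fold (*Trim34a* by its highest probe set at 1.14, *Trim14* in the separate pair) and 1 no longer did (*Trim30a* in the separate pair). Many of the 250 could not differ. Taking the highest probe set could change only *Trim34a* and *Trim42*, and adding probe sets with several symbols only *Trim12c* and *Trim34a*. With 1 array per condition, array error and treatment cannot be told apart for any single difference.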

Other observations

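*Trim30e-ps1*, the last gene of the chromosome 7 group, carries a suffix that the naming rule does not take. Its probe set gave 3.22 in control, 3.32 with IFNγ alone, 3.40 with benztropine alone and 3.03 with both agents, below background on every array. Its differences were 0.10 with IFNγ against control and -0.36 in the separate pair.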
